A study of Mus musculus with 2 samples.

Results

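The genes described here encode microRNAs (miRNAs) that are known for liver, muscle, pancreatic islets or gut rather than for brain. They were chosen by name from the GENCODE M21 annotation and are 10 of the 2202 annotated miRNA genes in the count tables. They are Mir122 of liver, Mir375 of islets, Mir206, Mir133b, Mir1a-1, Mir1a-2, Mir208a and Mir208b of muscle and heart, and Mir194-2 and Mir215 of gut. The RNA came from left cerebral cortex tissue of male B6CASTF1/J mice aged 2 months. These animals are the F1 offspring of a cross between C57BL/6J and CAST/EiJ mice. Library 1 was made from the animal numbered male 3 and library 2 from male 4, and both carry one donor identifier in the labels. The 2 libraries form 1 group with no treated or control samples, so each value is a level with its spread between libraries, which may be technical in part or in whole. Of 11372894 reads in library 1 and 12980686 in library 2, 3827158 and 4553291 were assigned to miRNA genes in the sense direction. Levels are given as CPM, the counts per 1000000 reads assigned in this way, without length scaling, since mature miRNAs have nearly the same length.

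A miRNA is cut from a hairpin precursor, and its seed, bases 2 to 8 of the mature strand, leads it to sites in messenger RNAs that it represses. miR-122 is the dominant miRNA of hepatocytes, and miR-375 is the best known islet miRNA, with a role in insulin secretion. miR-1, miR-133 and miR-206 are the muscle miRNAs, with miR-1 and miR-206 known to share a seed, and miR-208a and miR-208b are encoded within the heart's myosin heavy chain genes. miR-192, miR-194 and miR-215 are typical of intestinal, liver and kidney epithelium. These organ-restricted miRNAs are often used to judge whether a tissue sample holds RNA of another organ or of plasma.

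The mature sequences show which of these genes a short read can tell apart. They are from RefSeq (GRCm38.p6), run 5′ to 3′, and carry the seed in capitals. Of the 10 genes, 8 had at least 1 mature sequence in that table, and Mir122 and Mir1a-2 are named only. They are miR-375-3p, the strand known for its role in islets, and miR-1a-3p, the strand with the seed of miR-206-3p. The first set holds the skeletal muscle miRNAs, the second the heart pair and miR-499, the third the 5′ strand of Mir375, and the last the gut miRNAs with their partner loci.

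mmu-miR-206-3p: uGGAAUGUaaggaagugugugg
mmu-miR-206-5p: aCAUGCUUcuuuauauccucaua
mmu-miR-1a-1-5p: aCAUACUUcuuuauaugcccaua
mmu-miR-133b-3p: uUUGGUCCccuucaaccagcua
mmu-miR-208a-3p: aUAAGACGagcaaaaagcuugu
mmu-miR-208b-3p: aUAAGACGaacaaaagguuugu
mmu-miR-499-5p: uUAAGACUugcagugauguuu
mmu-miR-375-5p: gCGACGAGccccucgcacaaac
mmu-miR-194-5p: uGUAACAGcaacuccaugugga
mmu-miR-194-2-3p: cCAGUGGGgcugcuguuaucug
mmu-miR-194-1-3p: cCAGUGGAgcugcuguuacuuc
mmu-miR-215-5p: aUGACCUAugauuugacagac
mmu-miR-192-5p: cUGACCUAugaauugacagcc

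These sequences are alike in several ways. miR-194-5p is present whole in the hairpins of both Mir194-2 and Mir194-1, whereas their 3′ strands differ at 4 of 22 positions (G8A, U19C, C20U and G22C, counted from 1 at the 5′ end, Mir194-2 first). miR-208a-3p and miR-208b-3p share the seed and differ at 3 of 22 positions (G10A, A16G and C18U, miR-208a first). miR-215-5p and miR-192-5p share the seed and differ at 3 of 21 positions (A1C, U12A and A20C, miR-215 first). miR-133b-3p shares at least 20 bases with both Mir133a hairpins. Across all 2202 annotated hairpins, 4 of the 10 genes shared a stretch of 20 or more bases with a hairpin at another locus, namely Mir1a-1 and Mir1a-2 (28 bases each), Mir194-2 (22 bases) and Mir133b (21 bases). The other 6 shared at most 14 bases, which was the value for Mir208a and Mir208b with each other. The seed search left out entries on chromosome 18 as well. It found further genes that share a seed with a sequence compared. Mir6349 and Mir6382 (the seed of miR-206-3p) had 0 reads. Mir6926 and Mir7055 (the seed of miR-194-2-3p) had 5 to 9 reads per library. Mir6415 shares the seed of miR-208a-5p and of miR-208b-5p, and its reads are not reported here. Matches elsewhere in the genome were not analysed here.

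**Figure D1:**
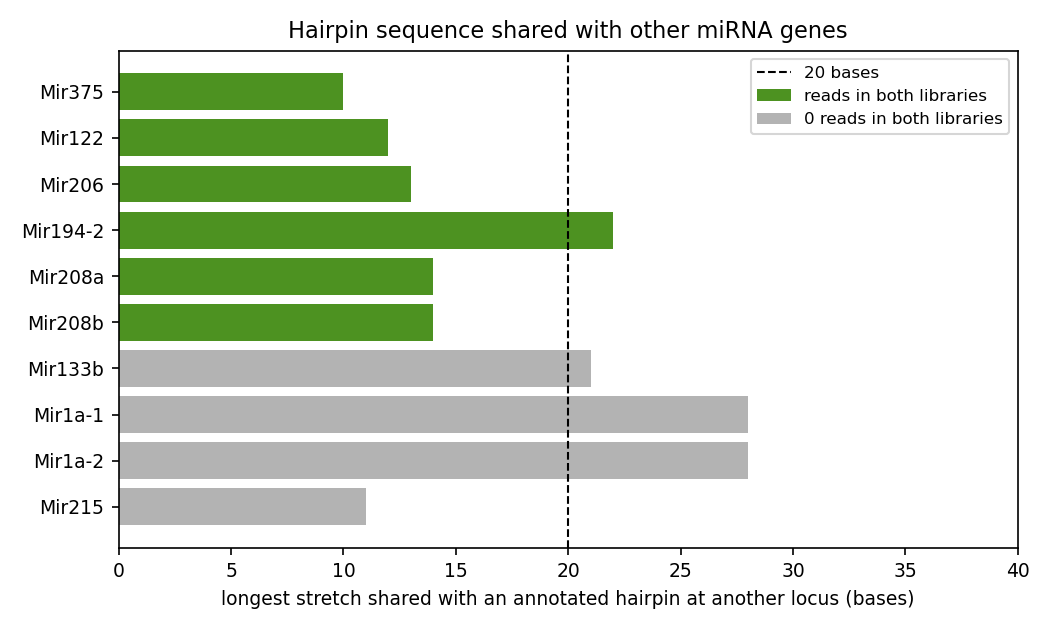
Longest stretch of bases that each of the 10 hairpins shares with an annotated hairpin at another locus (horizontal axis, bases), coloured by whether the gene had reads, with a dashed line at 20 bases. Of the 4 genes past the line only Mir194-2 had reads, and of the 6 below it only Mir215 had none.

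Reads were counted for 6 of the 10 genes and 4 had none in either library. Detection, set at 10 or more reads in both libraries, was reached by 4 genes (Mir375, Mir122, Mir206 and Mir194-2), or 40% of them, where 406 of all 2202 genes (18.4%) reached it. The median over the 10 genes was a mean level of 1.76 CPM, and over all annotated genes it was 0, because 1444 (65.6%) had no read. Together the 10 genes held 990 reads in library 1, against 1382 in library 2. That is 0.0259% of miRNA reads in library 1 (95% exact binomial interval 0.0243 to 0.0275%) and 0.0304% in library 2 (0.0288 to 0.0320%), a mean of 0.0281% ± 0.00317 (SD, n = 2). Intervals and limits cover counting error only, because no molecular identifiers are described and a molecule may be read repeatedly. Reads with several mapping places are in neither the sum nor the order below. This bears on the 4 genes that share 20 or more bases with another hairpin, Mir194-2 among them. By mean level the order was Mir375, Mir122, Mir206, Mir194-2, Mir208a and Mir208b. Mir206 and Mir194-2 changed places between the libraries, and their intervals overlap in library 1. The intervals of Mir208a and Mir208b overlap in both libraries. In bulk tissue, fewer cells of a type and less RNA per cell cannot be told apart.

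**Figure D2:**
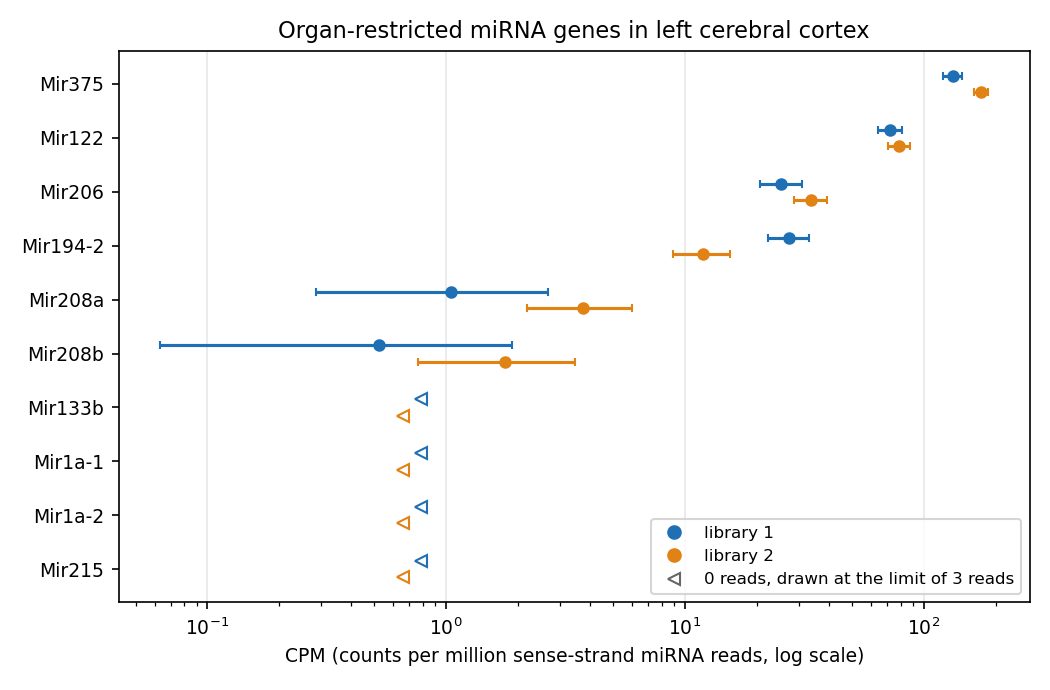
Level of each gene in library 1 and library 2 (horizontal log axis, CPM), with exact 95% Poisson intervals as bars and genes without reads drawn as open triangles at the limit that 3 reads would give. Mir375 lies highest at 132 and 174 CPM, and Mir208b is the lowest gene with reads at 0.523 and 1.76 CPM.

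Mir375 supplied more than any other of the 10 genes. It had 506 reads (132 CPM, 95% Poisson interval 121 to 144) in library 1 and 792 reads (174 CPM, 162 to 186) in library 2, a mean of 153 ± 29.5 CPM (SD, n = 2). This was 51.1% of the reads of the 10 genes in library 1 and 57.3% in library 2. Mir375 (ENSMUSG00000065616.3; mm10 chromosome 1, 74900658 to 74900721, minus strand) lies in no annotated gene, 1349 bases from Cfap65 and 7514 bases from Cryba2 on its own strand. It ranked 180 of all miRNA genes by mean CPM. It was the only one of the 10 genes above the median of the 406 detected genes, 95.6 CPM. The other pancreas miRNAs listed with it, miR-216 and miR-217 of acinar cells, were close to the limit of counting. Mir217 had 7 and 9 reads in libraries 1 and 2, Mir216b 3 and 2, Mir216a 2 and 0, and Mir216c none. Mir375 thus stood 72.3-fold above Mir217 in library 1 and 88.0-fold above it in library 2.

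Mir122, the liver miRNA, followed with 277 reads in library 1 and 358 in library 2. These are 72.4 CPM (64.1 to 81.4) and 78.6 CPM (70.7 to 87.2), a mean of 75.5 ± 4.42 CPM (SD, n = 2). The intervals of the libraries overlap. Mir122 (ENSMUSG00000065402.1) is on the plus strand of mm10 chromosome 18, from 65248861 to 65248926, within an exon of the lincRNA gene AC157910.3. It held 28.0% of the reads of the 10 genes in library 1 and 25.9% in library 2. Its rank of 213 placed 212 detected genes above it, or 52.2% of the 406. Mir375 was 1.83-fold above Mir122 in library 1 and 2.21-fold in library 2, so the order of these 2 genes was the same in both libraries. The rest of the liver list could not be described, because Mir122b matched no symbol of the annotation.

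Among the muscle genes, Mir206 of skeletal muscle was the highest. It had 97 reads in library 1 (25.3 CPM, 20.6 to 30.9) and 153 in library 2 (33.6 CPM, 28.5 to 39.4), a mean of 29.5 ± 5.84 CPM (SD, n = 2). Mir206 (ENSMUSG00000065559.1) is on the plus strand of mm10 chromosome 1, from 20679010 to 20679082, within an exon of the lincRNA gene Gm28653. Its hairpin shares at most 13 bases with any other, so a full-length read can be placed among annotated hairpins. Mir133b (ENSMUSG00000065480.1; 20682769 to 20682887), 3686 bases downstream and also exonic in Gm28653, had 0 reads in both libraries. A count of 0 allows up to 0.784 CPM in library 1 and 0.659 CPM in library 2. That limit holds for reads placed at Mir133b alone, since miR-133b-3p shares 20 bases with the Mir133a hairpins.

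Mir1a-1 and Mir1a-2, which encode the miR-1 of heart and skeletal muscle, had 0 reads as well. Mir1a-1 (ENSMUSG00000070144.1; mm10 chromosome 2, 180389048 to 180389124, plus strand) has Mir133a-2 9254 bases away on its strand, and Mir1a-2 (ENSMUSG00000106348.1; chromosome 18, 10785481 to 10785552, minus strand), intronic in Mir133a-1hg, has Mir133a-1 2504 bases away. Mir133a-1 and Mir133a-2 were at 0 in both libraries too. All 5 muscle genes without a read shared at least 20 bases with a hairpin at another locus. Reads with several mapping places are tallied apart from the genes in these tables, at 41.7% of all reads in library 1, against 41.1% in library 2. The zeros of these 5 genes are therefore levels of uniquely placed reads only. The strand opposite Mir1a-2 carries Mir1b, which overlaps it and had 13 reads in library 1 and 8 in library 2.

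The heart pair was near the limit of counting. Mir208a had 4 reads in library 1 (1.05 CPM, 0.285 to 2.68) and 17 in library 2 (3.73 CPM, 2.17 to 5.98). Mir208b had 2 reads in library 1 (0.523 CPM, 0.0633 to 1.89) and 8 in library 2 (1.76 CPM, 0.759 to 3.46). Both were lower in library 1, and Mir208a was close to 2 times Mir208b in each (2.00-fold in library 1 and 2.12-fold in library 2). Mir208a (ENSMUSG00000065432.1) is on the minus strand of mm10 chromosome 14, from 54949060 to 54949142, and is intronic in Myh6, the gene of the alpha heavy chain of cardiac myosin. Mir208b (ENSMUSG00000077928.1; 54975700 to 54975776, same strand) is intronic in Myh7, which encodes the beta heavy chain. Mir206 exceeded Mir208a 24.2-fold in library 1 and 9.00-fold in library 2. Mir499, a related muscle miRNA whose seed differs from that of miR-208 in its last base, was detected at 49 reads (12.8 CPM) in library 1 and 72 reads (15.8 CPM) in library 2. Of the 10 listed muscle genes, Mir206 and Mir499 were thus detected and 5 had no read. The other 3 (Mir208a, Mir208b and Mir1b) had reads but did not reach 10 in both libraries.

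The gut genes lie in pairs at separate loci, and reads were counted at one pair only. Mir194-2 (ENSMUSG00000065582.1; mm10 chromosome 19, 6264643 to 6264728, plus strand) lies in no other annotated gene, 115 bases from Mir192. Mir194-2 had 104 reads in library 1 (27.2 CPM, 22.2 to 32.9) and 54 in library 2 (11.9 CPM, 8.91 to 15.5), a mean of 19.5 ± 10.8 CPM (SD, n = 2). Mir192 had 32 reads in library 1 and 44 in library 2, or 8.36 and 9.66 CPM. The pair on chromosome 1, Mir215 (ENSMUSG00000065562.1; 185313581 to 185313692, plus strand) and Mir194-1 195 bases from it, had 0 reads for both genes in both libraries. Mir215 is exonic in 2010103J01Rik, annotated as an antisense gene, and lies opposite an intron of Iars2.

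Mir215 was the one gene without a read whose hairpin is unlike the others, sharing at most 11 bases with any other annotated hairpin. The reads of Mir192 were 10.7-fold the limit of 3 reads for Mir215 in library 1 and 14.7-fold in library 2. Their 5′ strands share a seed. These folds leave out the counting error of Mir192, whose intervals were 5.72 to 11.8 CPM in library 1 and 7.02 to 13.0 CPM in library 2. Mir194-1 and Mir194-2 cannot be set against each other in the same way, because miR-194-5p lies whole in both hairpins. The stretch they share is no longer than miR-194-5p itself, at 22 bases. A read of exactly miR-194-5p fits both loci, and the arm that the reads at Mir194-2 came from was not analysed here.

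**Figure D3:**
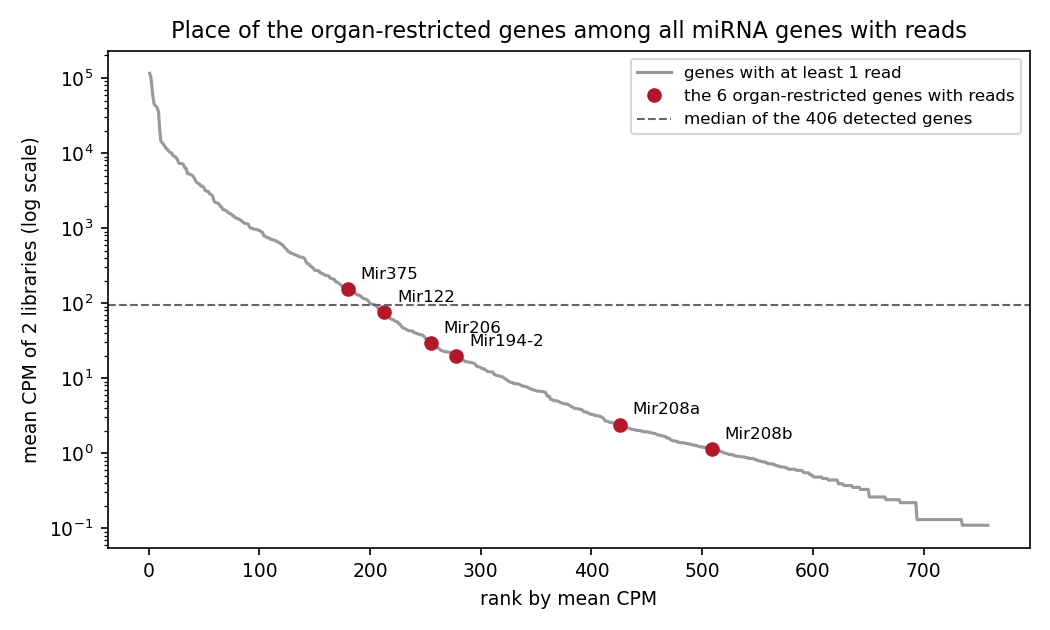
Mean CPM of both libraries (vertical log axis) against rank for all miRNA genes with at least 1 read, with the 6 organ-restricted genes that had reads marked and the median of the 406 detected genes dashed. Mir375 lies above the median of 95.6 CPM, and the other 5 lie below it.

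Of the 6 genes that could be tested, 3 differed between the libraries by more than counting error. The two-sided exact binomial test was run on the 508 miRNA genes with 10 or more reads in total and adjusted over all of them by the Benjamini-Hochberg method. It called 48.4% of those genes, 25.2% as higher in library 1 and 23.2% as higher in library 2. Against this background, a count of 3 in 6 is close to the share over all genes. CPM was higher in library 2 for 5 of the 6, and the median log2 ratio of all 6 was -0.40. Over the tested genes with reads in both libraries the median was -0.00312, so ratios below 0 were about as common as ratios above 0. Mir194-2 was higher in library 1 (2.29-fold, a log2 ratio of 1.20 for library 1 over library 2, with an exact 95% interval of 0.71 to 1.70 and an adjusted p = 1.25e-06). Mir375 was lower in library 1 (log2 ratio -0.40, -0.56 to -0.23; adjusted p = 3.95e-06). Mir208a was lower in library 1 as well (log2 ratio -1.84, -3.87 to -0.22; adjusted p = 0.0321), on 4 and 17 reads.

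The remaining 3 genes did not pass that test. Mir206 had a log2 ratio of -0.41 (exact interval -0.79 to -0.03; adjusted p = 0.0621). Mir208b had one of -1.75 (-5.02 to 0.58; adjusted p = 0.205). Mir122 had one of -0.12 (-0.35 to 0.11; adjusted p = 0.447). The binomial test allows for no spread between animals. edgeR's exact test, which adds the common spread of the 508 genes (coefficient of variation 33.3%), called 0.787% of them and none of the 6. The lowest unadjusted p among the 6 was 0.105, for Mir194-2, and 25 of the 508 genes had an unadjusted p under 0.05. The dispersion came from the same 2 libraries, so this is no replicated test.

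**Figure D4:**
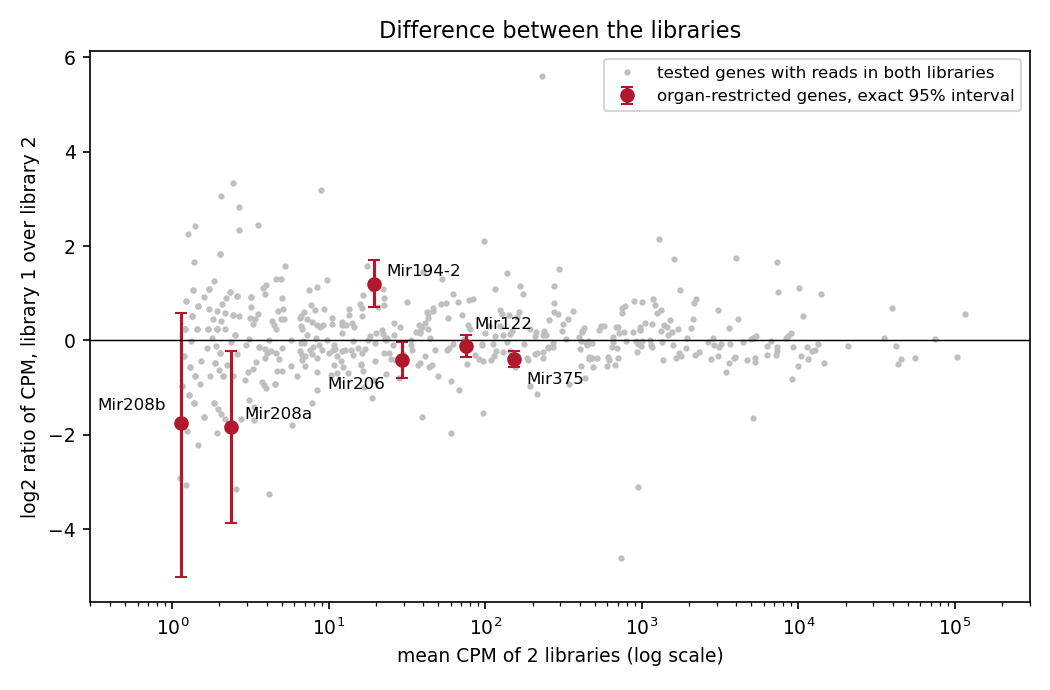
Log2 ratio of CPM, library 1 over library 2 (vertical axis), against mean CPM (log axis) for the tested genes with reads in both libraries (grey) and the 6 organ-restricted genes (red, with exact 95% intervals). Mir194-2 alone of the 6 lies above 0, at 1.20, and the interval of Mir122 spans 0.

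Mir194-2 and its neighbour Mir192 differed in their ratios between the libraries. Mir194-2 had 3.25 reads for each read of Mir192 in library 1 and 1.23 in library 2. Both are counts of uniquely placed reads. A read of exactly miR-194-5p also fits Mir194-1, whereas the Mir192 hairpin shares at most 13 bases with any other. Mir192 had a log2 ratio of -0.21 with an exact interval of -0.91 to 0.48, which lies wholly below that of Mir194-2. The heart pair, which sits in separate host genes, had log2 ratios of -1.84 and -1.75, and the interval of Mir208a lies within that of Mir208b. Mir206 and Mir499 kept a similar relation, with Mir206 1.98-fold above Mir499 in library 1 and 2.12-fold in library 2.

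For each detected gene, the nearest genes in log2 CPM over both libraries were found over all annotated genes, as a likeness of level that rests on 2 values per gene. They were Mir376b and Mir30b for Mir375, Mir16-2 and Mir130b for Mir122, Mir3057 and Mir467c for Mir206, and Mir1247 and Mir669l for Mir194-2. The distances ranged from 0.07 to 0.29 log2 units. Genes near in both libraries have a like ratio between them by this choice, as with Mir194-2 (2.29-fold higher in library 1) and Mir1247 (2.14-fold).

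Markers of cortex and of blood were read beside these levels. The neuron list held 7.77% of miRNA reads in library 1 and 5.25% in library 2, with 9 of 12 genes detected. Its genes did not all go the way of the sum. Of the 10 tested, 4 were called higher in library 1 and 2 higher in library 2. Over all tested genes these shares were 25.2% and 23.2%. The 3 oligodendrocyte genes held 0.498% in library 1 and 0.347% in library 2. The 3 Mir124a genes of the neuron list, which encode one neuronal miRNA at several loci, had between 1 and 18 reads per library. The 3 red blood cell genes held 0.0134% in library 1 and 0.155% in library 2. All 3 were called, Mir451a (log2 ratio -4.61) and Mir144 (-1.97) as lower in library 1 and Mir486 (0.55) as higher. Beside these, Mir208a at -1.84, Mir208b at -1.75, Mir206 at -0.41, Mir375 at -0.40 and Mir122 at -0.12 had ratios below 0, and Mir194-2 at 1.20 had one above 0. The part of blood in these levels was not tested. The 4 choroid plexus and ciliated cell genes held 0.0718% in library 1 and 0.0722% in library 2, the 2 matched vessel genes 1.41% and 1.84%, and the 3 leukocyte and microglia genes 0.135% and 0.107%. Of these last 3, Mir223 (log2 ratio 3.18, on 61 and 8 reads) and Mir150 (0.34) were called higher in library 1. Mir142 (0.06) did not pass the test. The 7 epithelium genes, 6 of them detected, held 0.0221% in library 1 and 0.0144% in library 2, and 2 of the 7 (Mir200b and Mir203) were called higher in library 1, where 25.2% of all tested genes were. Mir141 of that list had a ratio below 0 (-0.56) and did not pass the test. None of the marker genes was at 0 reads in both libraries. The part of epithelial cells in the level of Mir194-2 was not tested. The pancreas list held 0.0135% and 0.0176%, the liver list 0.00724% and 0.00786%, the muscle list 0.00431% and 0.00567%, and the gut and kidney list 0.00355% and 0.00215%. By uniquely placed reads, the liver, muscle, and gut and kidney lists lay below every brain, blood and epithelium list in their own library. Reads with several mapping places are in no list. The 5 muscle genes at 0, Mir1b, Mir194-1 and Mir194-2 each share 20 or more bases with a hairpin at another locus. Such sharing was not analysed for the brain, blood and epithelium lists. The order of the lists with such reads included was not analysed here. In library 1 the pancreas list held 518 reads and the red blood cell list 512, with overlapping intervals, and in library 2 it was above the epithelium list.

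**Figure D5:**
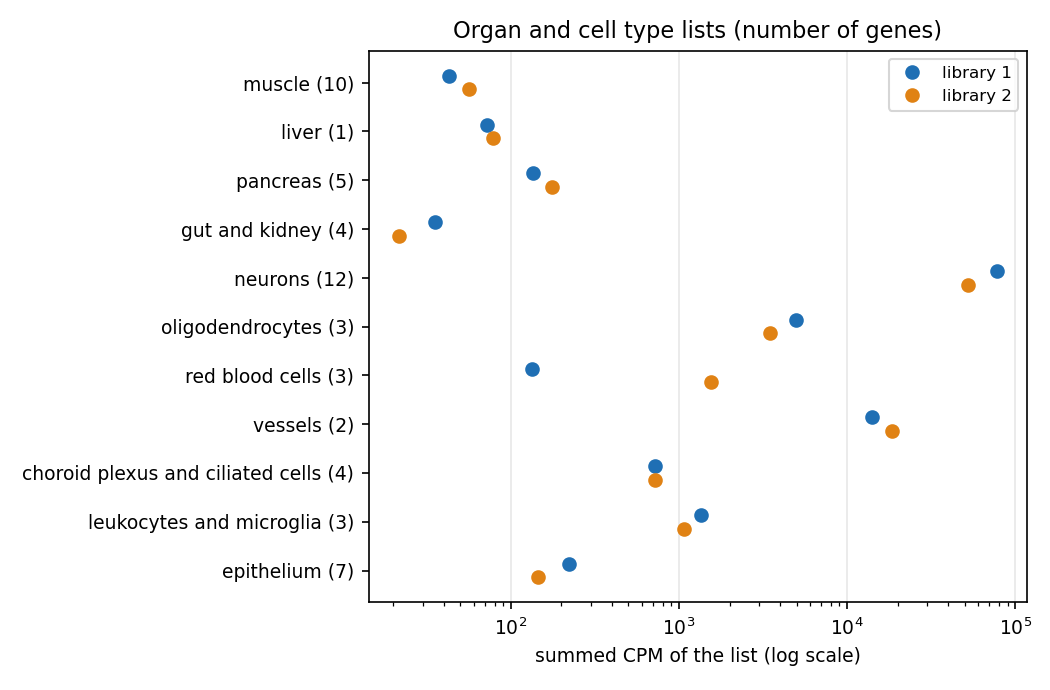
Summed CPM of each organ and cell type list in library 1 and library 2 (horizontal log axis), with the number of genes matched in brackets. The neuron list leads at 77660 and 52536 CPM, and the muscle and the gut and kidney lists are the lowest in both libraries. Reads with several mapping places are in no list.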

How the data were processed

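Short RNA under 30 nucleotides was sequenced from 2 cortex libraries. The authors deposited, for each, whole-number read counts per miRNA gene, not normalized, in 3 columns (strand ignored, sense and opposite strand) after 4 tally rows. The genome was mm10 and the annotation M21, per the labels and the deposited file descriptions. The sources used here do not name the aligner, the counting tool or the trimming, and the handling of reads with several places is read from the tally rows.

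The sense-strand column was used, recognised by its larger gene total. Tally rows stayed out of library sizes and tests. All 2202 identifiers matched GENCODE M21. The members, lists and tests were chosen with earlier results of these data known. The rule for named genes was the 10 genes, genes within 10 kb of them on either strand, and genes sharing a seed. The rule also took listed organ genes with 10 or more reads, and the 2 nearest genes of each detected gene. Mir216a, Mir216b, Mir216c, Mir451a, Mir144, Mir486, Mir142, Mir150, Mir223, Mir141, Mir200b, Mir203 and the Mir124a genes fall outside it and were chosen with their values in view.

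A two-sided exact binomial test, conditional on library size, was run for the 508 genes whose reads summed to 10 or more, and p-values were adjusted over all of them (Benjamini-Hochberg, threshold 0.05). Intervals are 95%, and a count of 0 was given the limit of 3 reads. edgeR 4.0.16 (R 4.3.3) gave the exact test at the common dispersion, and DESeq2 1.42.0 gave size factors as an alternative. The rest was done in Python 3.11.15 (numpy 2.4.6, pandas 2.3.3, scipy 1.17.1). Both tests were tested on simulated data. Hairpins were read from GENCODE M21 transcripts and compared on both strands. RefSeq mature sequences on chromosome 18 were left out. Mir122b and Mir145 matched no gene symbol.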

Additional observations from a re-analysis of the deposited data

Results flagged for a closer look

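Mir1a-2, which had no sense-strand read, had entries for the opposite strand, 13 in library 1 and 8 in library 2, above the 3 reads that a count of 0 allows. These equal the sense-strand reads of Mir1b, which overlaps it on the other strand. None of the other 9 genes had an opposite-strand entry. Outside the gene rows, multiply mapped reads were 41.7% of the total in library 1, against 41.1% in library 2. How many of them came from miR-1, miR-133 or miR-194 was not analysed here.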

How the results depend on the processing

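The number of detected genes was 4 with minimums of 5 or 20 reads and in the column that ignores strand, 5 in library 2 alone and 4 in library 1 alone. The summed share was 0.00968% with all reads of the library as denominator, against 0.0281%, because that denominator is larger. The count of genes that differed was 0 by edgeR's exact test, against 3 by the binomial test, since edgeR's test adds the spread between samples. The other scalings, the other column and testing every gene with a read kept it within 1.5 times. No log2 ratio reversed. Mir206 passed the binomial test with DESeq2's size factors (adjusted p = 0.0394) and with all reads as denominator (adjusted p = 0.0287), against 0.0621, and by edgeR's test its adjusted p was 1. No paired analysis was possible because the series has 1 group. Depth limits the heart pair, whose reads per library ran from 2 to 17.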
